A study of Homo sapiens with 38 samples.

Results

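Of 5151 Sp1 WT peaks in U2OS cells, a human osteosarcoma line, 285 (5.53%) lay at the start of a long noncoding RNA (lncRNA) and at no protein-coding start. They were chosen from the Sp1 WT mouse anti-FLAG peak list by position alone. The summit had to lie within 1000 bp of a transcript start of a GENCODE 44 lncRNA gene in hg38, and more than 1000 bp from every transcript start of a protein-coding gene. Another 3988 peaks lay within 1000 bp of a protein-coding start, and 3100 of those had no lncRNA start within the same distance. A further 845 peaks lay at neither kind of start, and 33 on sequences that the annotation does not cover. All 19 lists of the series together held 27085 peaks.

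Sp1 is a ubiquitous transcription factor whose zinc fingers recognize GC boxes in promoters, many of them in CpG islands. Its long unstructured N-terminal region, the intrinsically disordered region (IDR), contacts other factors. lncRNAs are transcribed by RNA polymerase II from promoters of their own, and many of these promoters lack the strong CpG island of a typical housekeeping gene. Where a lncRNA starts beside a coding gene, often in the opposite direction, a peak cannot be assigned to one of the pair, and the distance rule leaves out the closest of such shared promoters. It keeps some farther apart, at EOLA2-DT (1383 bp from the coding start), PBX3-DT (1065 bp), RASSF3-DT (1108 bp) and ZNF516-AS1 (1045 bp).

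CUT&RUN, in which an antibody directs a nuclease to its target in permeabilized cells, was done in 38 samples, which are 19 pairings of a line with an antibody, each in 2 biological replicates. All lines carried V5-Halo tags on endogenous Sp1, including the parental line without a transgene (CTRL), and the series has no sample without endogenous Sp1. The other lines also carried 1 FLAG-tagged, SNAPf-fused transgene at the AAVS1 safe harbor site. By the labels, all samples, CTRL included, had 36 h of 1 µg/ml doxycycline and another 36 h of culture with doxycycline. The paper describes a sort for transgene expression between these periods. How CTRL cells, which carry no transgene, were handled at that step is not stated there. The transgenes were Sp1 WT, the isolated Sp1 DNA binding domain (Sp1 DBD), the disordered region of EWS joined to that domain (EWS IDR-Sp1 DBD), the Sp1 IDR joined to the bacterial repressor LacI or to the CTCF DBD, LacI alone, the CTCF DBD alone, an Sp1 DBD Mutant and a SNAPf-NLS control. Rabbit and mouse anti-V5 antibodies (rV5 and mV5) read endogenous Sp1 in the CTRL, Sp1 WT, Sp1 IDR-LacI and Sp1 IDR-CTCF DBD lines, and FLAG antibodies read the transgene or, in CTRL cells, background. The deposited lists hold peaks reproducible between both replicates, so a list has no replicates of its own, and the read depth behind it is unknown here.

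The summit windows of 5 peaks are shown because they hold both kinds of site described below, with and without a GC box. They are the 4 strongest peaks whose lncRNA has a symbol and whose window is not mostly repeated sequence, and the 2 strongest of that kind with no GC box, one of which is in both sets. Each is the summit with 100 bases to either side on the hg38 plus strand, 5′ to 3′, with every GGGCGG or its complement CCGCCC in capitals. The first 3 windows lie at FAM86C2P (chr11:67805571-67805771), FAM86EP (chr4:3955643-3955843) and LINC02021 (chr3:130111615-130111815).
FAM86C2P: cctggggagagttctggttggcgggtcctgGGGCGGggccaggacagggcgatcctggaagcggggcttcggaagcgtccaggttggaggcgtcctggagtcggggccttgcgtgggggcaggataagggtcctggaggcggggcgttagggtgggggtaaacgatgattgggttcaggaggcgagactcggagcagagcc
FAM86EP: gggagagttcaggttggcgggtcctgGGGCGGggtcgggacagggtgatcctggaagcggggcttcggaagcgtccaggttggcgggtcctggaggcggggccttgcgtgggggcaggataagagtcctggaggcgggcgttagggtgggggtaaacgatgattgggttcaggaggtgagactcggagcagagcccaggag
LINC02021: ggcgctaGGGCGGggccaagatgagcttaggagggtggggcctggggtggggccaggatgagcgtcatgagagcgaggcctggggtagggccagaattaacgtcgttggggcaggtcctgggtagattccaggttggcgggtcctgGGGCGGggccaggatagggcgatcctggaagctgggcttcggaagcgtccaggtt
The next 2 windows lie at LINC01237 (chr2:241881508-241881708) and EBLN3P (chr9:37079607-37079807) and hold no GC box.
LINC01237: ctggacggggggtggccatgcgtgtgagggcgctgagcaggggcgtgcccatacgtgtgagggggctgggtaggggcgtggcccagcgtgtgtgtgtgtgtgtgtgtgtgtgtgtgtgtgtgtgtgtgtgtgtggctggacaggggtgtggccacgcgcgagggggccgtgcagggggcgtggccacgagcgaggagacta
EBLN3P: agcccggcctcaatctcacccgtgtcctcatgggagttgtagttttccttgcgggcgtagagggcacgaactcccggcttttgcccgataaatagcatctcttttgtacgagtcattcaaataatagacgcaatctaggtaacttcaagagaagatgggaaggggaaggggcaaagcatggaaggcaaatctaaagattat
The FAM86C2P, FAM86EP and LINC02021 windows share stretches of sequence with one another.

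The 285 peaks covered 283 lncRNA genes by the nearest start, and 4 of them shared a gene with another. The nearest lncRNA had only an Ensembl identifier at 159 peaks and a LINC name at 53. It had an antisense name at 20, a divergent name at 3, a name ending in P as pseudogenes have at 22, a small RNA host name at 5 and another symbol at 23. Most summits (248, 87%) lay in no protein-coding gene, 31 lay in an intron and 6 in an exon of one. Summits sat close to the start, at a median of 127 bp, with 187 within 200 bp and 165 upstream of it. Starts of lncRNAs on both strands lay within the limit at 55 peaks. The nearest protein-coding start was at a median distance of 23726 bp. Chromosome 1 held 31 among its 542 annotated Sp1 WT peaks (5.72%), near the 5.53% of the whole list, and chromosome 16 held 22 of its 249 (8.84%). The share was higher on chromosomes 22 (14 of 154, 9.09%) and 18 (6 of 61, 9.84%).

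At the limits of the rule, the peak at ENSG00000259002 was kept at 997 bp from its lncRNA start and a peak at ENSG00000286817 fell outside at 1011 bp. The peak at ZNF516-AS1 was kept at 1045 bp from the ZNF516 start, and a peak at ENSG00000285804 fell outside at 965 bp from the MAP1B start.

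In strength these peaks were spread over the whole list. Their −log10 p-value, by which peaks are ranked within a list and which is the smaller of the values of both replicates, ran from 8.12 to 126 with a median of 18.9, against 19.2 at coding starts and 16.8 at neither start. From the strongest to the weakest quartile of the list they numbered 69, 75, 77 and 64. The share in the strongest quartile was 24.2% (95% Wilson interval 19.6 to 29.5), against 26.5% of coding-start peaks, a difference of −2.32 percentage points (two-sided Fisher's exact test, adjusted exact p = 0.4). Compared with peaks at neither start, 18.2% of which were in that quartile, the share was higher (adjusted exact p = 0.039). Widths ran from 216 to 4587 bp with a median of 934, against 980 at coding starts and 765 at neither. The share wider than the list median of 941 bp was 49.5%, against 53.1% (adjusted exact p = 0.3) and 35.6% (adjusted exact p = 7.5e-05). The tests treat peaks as sites, not replicates, so each p compares these lists and not cultures.

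The replicates ranked the 285 peaks alike, with a Spearman's rho of 0.846 across peaks. The replicate given first to the reproducibility analysis had the higher value at 8 of them, and at 96 of 3988 coding-start peaks, so the merged value is nearly always that of the same replicate.

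The strongest peak lay 370 bp downstream of the start of ENSG00000248103 on chromosome 5, at rank 5 of the whole list. Its −log10 p-value was 126 in one replicate and 136 in the other, and its window held 7 GC boxes. It was found in 11 of the 18 other lists, with 85.9 in the Sp1 DBD list, 93 in the EWS IDR-Sp1 DBD list and 12 in the CTCF DBD list. FAM86C2P, a pseudogene of the FAM86 family, came next at rank 26 (91.5 and 131), and LINC01115 at rank 27 (91.3 and 130). The LINC01115 window counted as repeated sequence, since 52% of its 31-base words occur more than once in the genome.

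Among lncRNAs with a symbol and a window that is mostly unique, the peaks after FAM86C2P were FAM86EP (80.2 and 116) and LINC02021 (74 and 99.6), the latter in an intron of ALG1L2. LINC01237 followed with 58.7 and 73.3, EOLA2-DT, which starts close to EOLA2, with 58 and 67.9, and LINC01376 with 56.8 and 67.9. LINC01144, in an intron of ZSWIM5, had 56 and 62.3. The peak of MIRLET7A1HG, the host transcript of a let-7 microRNA cluster, had 55.8 and 74.6. EBLN3P, derived from an ancient bornavirus-like insertion, had 48.8 and 81.5. The other 6 of the 15 strongest named peaks were LINC00939, LINC01569, MIATNB, DNM1P35, LINC00173 and ERVK13-1, between 44 and 45.7. EOLA2-DT, LINC01144, LINC01376, LINC01237, LINC01569, MIATNB and DNM1P35 were each found in 10 other lists, namely the Sp1 DBD and EWS IDR-Sp1 DBD lists and all 8 V5 lists. The map of named peaks by list shows these rows filled across and the rows of weaker peaks nearly empty.

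**Figure D1:**
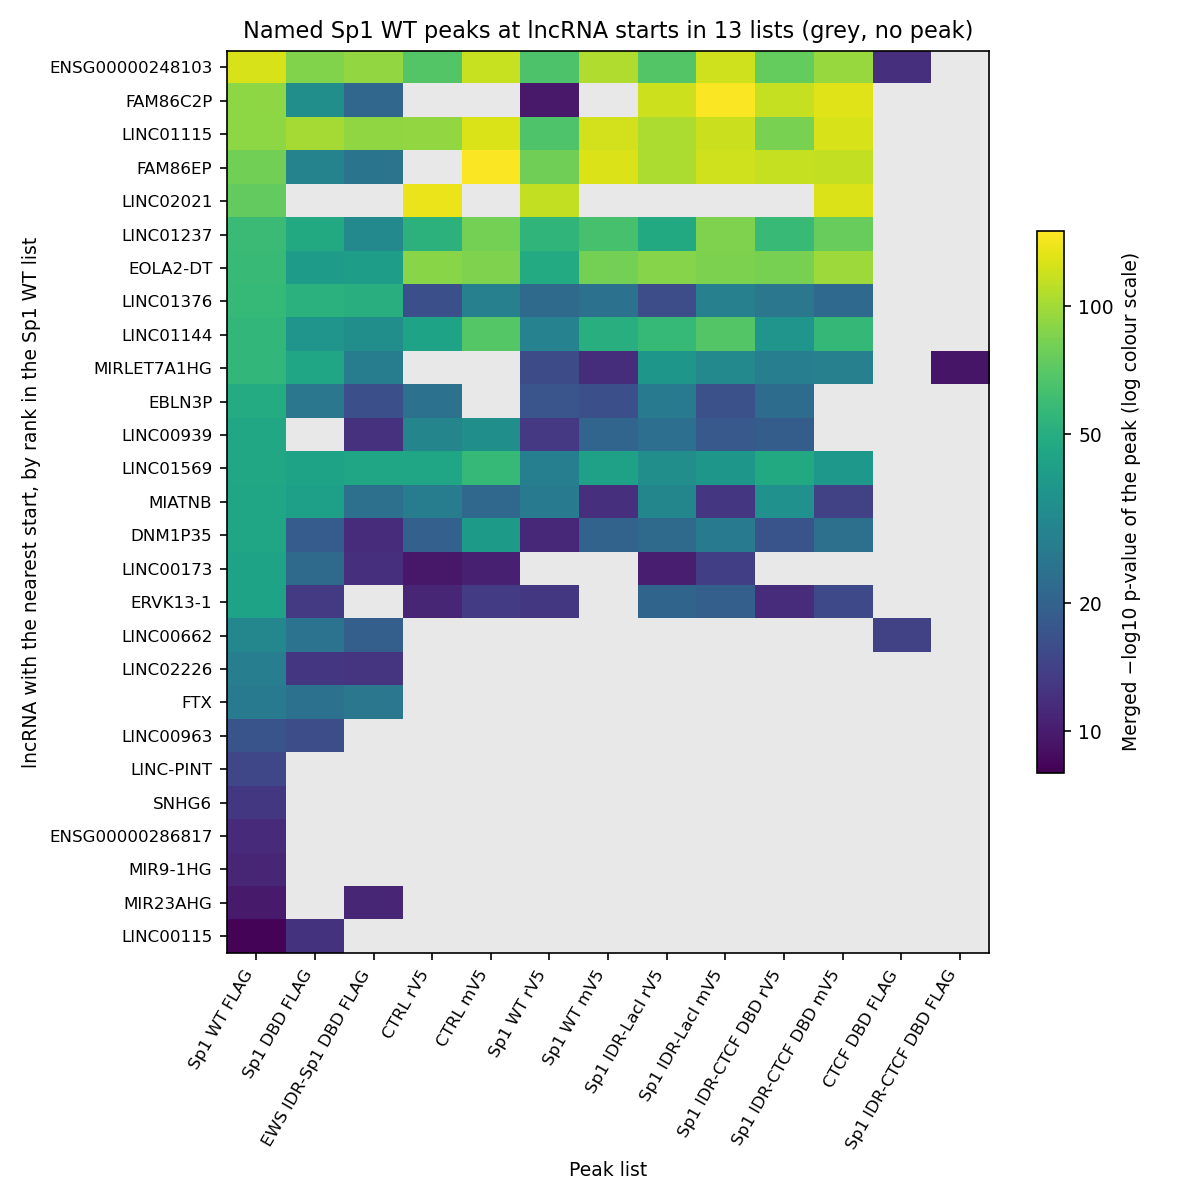
Merged −log10 p-value (colour, log scale) of 27 named Sp1 WT peaks at lncRNA starts (rows, by rank) in the Sp1 WT list and 12 other lists (columns), with grey for no peak. The V5 columns are grey in all 10 rows from LINC00662 down, and the FAM86C2P and LINC02021 rows alternate between high values and grey.

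At any of their annotated starts, 344 of the 18866 lncRNA genes of GENCODE 44 (1.82%) had a member, and 7 lists of well-known lncRNAs were set beside that share as a description. Of 32 annotated snoRNA host genes, which carry small nucleolar RNAs in their introns, SNHG6 and SNHG21 had such a peak (6.25%). Of 38 microRNA host genes there were 4, MIRLET7A1HG, MIR4458HG, MIR23AHG and MIR9-1HG (10.5%). FTX, in the X inactivation centre, was the one of 11 nuclear body and chromatin lncRNAs (9.09%). LINC-PINT, which p53 induces, was the one of 11 in the p53 and genome stability list, and LINC00662, LINC00963 and LINC01128 were the 3 of 34 in the cancer list (8.82%). None of 18 lncRNAs of the HOX clusters and none of 9 imprinted lncRNAs had one. With all Sp1 WT peaks counted, coding-start peaks included, the snoRNA host genes had 8 and the microRNA host genes 5. The nuclear body and chromatin list had 1, the p53 list 3, the cancer list 4 and the HOX and imprinted lists 0. The share of all lncRNA genes with any Sp1 WT peak was not computed. The 1.82% counts members alone and is no background for these numbers.

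Of these 11 peaks, 7 ranked below the middle of the list. MIRLET7A1HG ranked 260 and LINC00662 ranked 1090 (30.9 and 38.8). The peak that holds the starts of MIR4458HG and LINC02226 had 27.9 and 43.6, and the FTX peak, with its summit at the start itself, 26.6 and 29.9. LINC00963 (17.1 and 25.1) and LINC-PINT (15 and 17.5) ranked 2872 and 3335. SNHG6 (12.9 and 36.4), the SNHG21 peak (11.5 and 18.2), MIR9-1HG (11 and 30.9), MIR23AHG (9.88 and 17) and the peak at LINC00115 and LINC01128 (8.27 and 17.1) ranked between 3850 and 5139. FTX was found in the Sp1 DBD list (24.2) and the EWS IDR-Sp1 DBD list (25.6). LINC-PINT, SNHG6, SNHG21 and MIR9-1HG were in no other list.

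A GC box was the commonest of the motifs near the summits. GGGCGG on either strand lay within 100 bp of the summit at 197 of 285 peaks, 69.1% (63.5 to 74.2), against 70.2% of all 5151 windows. The share was 75.3% at coding starts, a difference of −6.18 points (Fisher's exact test, Benjamini-Hochberg over 9 motifs, adjusted exact p = 0.042), and 47.9% at neither start (adjusted exact p = 4.5e-09). Within quartiles of rank the odds ratio against coding starts was 0.734 (0.565 to 0.954, Mantel-Haenszel). Without repeated sequence the difference from coding starts was −4.87 points and missed the threshold (unadjusted exact p = 0.11). Anywhere in the peak, 265 of the 285 (93%) had one, and 97.6% at coding starts.

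The longer box GGGGCGGGG, which contains the first, was in 20.7% of windows, against 30.1% at coding starts and 27.2% of all (adjusted exact p = 0.0053). The CACCC box, CACCC, to which KLF-family factors and Sp1 can bind, was more frequent at lncRNA starts, with 65.3% against 55.9% and 56.7% of all (adjusted exact p = 0.008). CCAAT, the NF-Y site, was in 25.3% against 32.6% and 30.1% of all (adjusted exact p = 0.023). The AP-1 site TGANTCA was in 5.96% against 2.61% and 4.52% of all (adjusted exact p = 0.008), and reached 13.3% at neither start. The ETS site CCGGAAG was in 8.07% of windows and 8.33% of all, the TATA box TATAAA in 2.11% and 2.33%, the NRF1 sequence GCGCATGC in 1.4% and 2.43%, and the CTCF core in 0.351% and 0.33%. For these 4 the adjusted p against coding starts was between 0.28 and 1.

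CpG content set the classes further apart. The 501 bases around the summit were CpG island-like (at least 50% GC and an observed to expected CpG ratio of at least 0.6) at 66.3% of lncRNA-start peaks, 87.5% of coding-start peaks and 29.5% of peaks at neither start (adjusted exact p = 2.5e-18 and 4e-27). From the strongest to the weakest quartile the share at lncRNA starts was 71, 72, 63.6 and 57.8%, and at coding starts it lay between 86.9 and 88.4% throughout. The lncRNA-start peaks were thus below the coding-start peaks in each of the 4 quartiles.

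**Figure D2:**
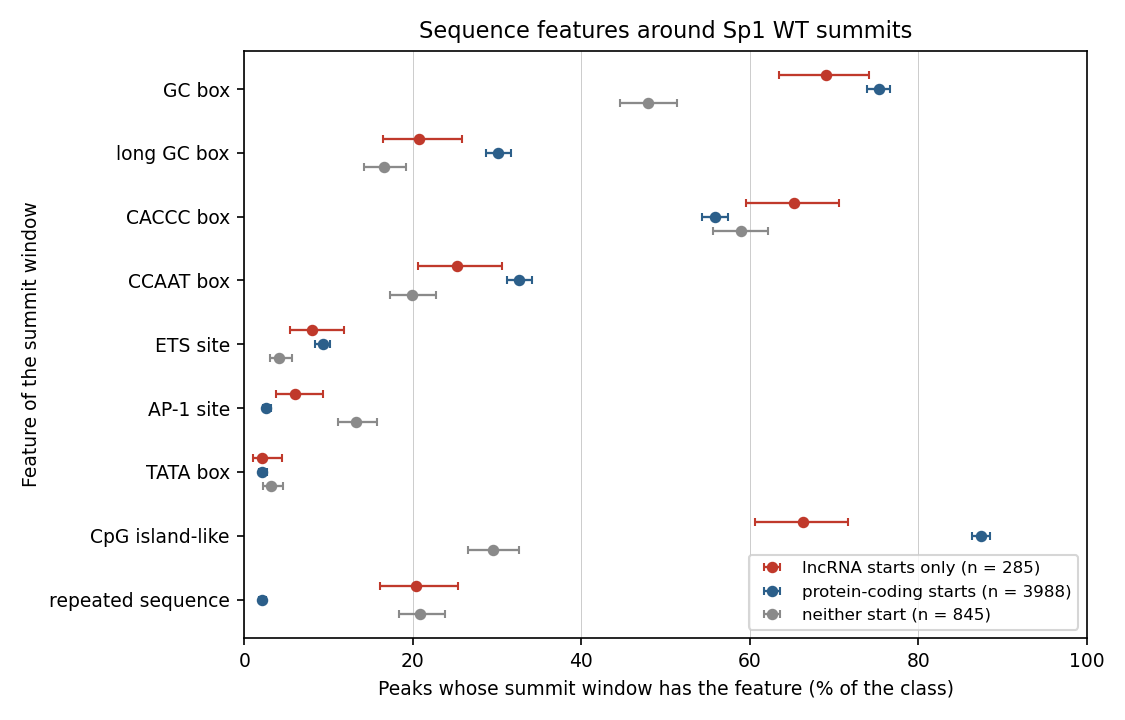
Share of Sp1 WT peaks whose summit window has each feature (percent, points) with 95% Wilson intervals (bars), for 285 peaks at lncRNA starts only, 3988 at protein-coding starts and 845 at neither. The lncRNA-start peaks lie between the other classes for GC boxes and CpG islands, and with the peaks at neither start for repeated sequence.

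By distance to the nearest coding start, a GC box was in 80.9% of 47 windows between 1 and 5 kb from a coding start, 69.5% of 82 between 5 and 20 kb, 72.6% of 106 between 20 and 100 kb and 50% of 50 beyond 100 kb. Repeated sequence was at 4.26, 12.2, 28.3 and 32% of the same windows. The peaks with LINC names held a GC box at 30 of 53 (56.6%), those with antisense names at 16 of 20 (80%). These shares are given as a description.

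Repeated sequence was common at lncRNA starts. At 58 of the 285 peaks (20.4%) at least 50% of the 31-base words within 100 bp of the summit occur more than once in hg38, against 2.11% at coding starts (adjusted exact p = 3.1e-32) and 20.9% at neither start (adjusted exact p = 0.87). The 50% limit was reached at 39 of the 159 peaks with only an Ensembl identifier, 10 of 22 with pseudogene-like names and 0 of 20 with antisense names. Repeated words can lie in another copy or be repeated within the same window. Whether reads were placed uniquely was not examined, so the identity of the bound copy may be uncertain at these peaks.

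Some members also shared sequence with each other. In 13 groups, 34 members shared at least 5% of the 31-base words of the shorter peak with another member of the group. The highest share of a member ran from 5.19% (ENSG00000282885 and PCAT19) to 94.2% (ENSG00000291269 and ENSG00000291274). These peaks are thus not fully separate sequences, to very different degrees. The largest group had 5 members, FAM86C2P, ENSG00000248787, FAM86EP, LINC02021 and ENSG00000287117, on chromosomes 11, 3 and 4, all within the first 138 ranks and all with a GC box. Their pairs above the minimum shared between 5.17 and 24.3% of the words of the shorter peak. Members at STAG3L4 and STAG3L5P formed another group with ENSG00000290951, and SDHAP1 one with ENSG00000229178.

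Members of the FAM86-like group differed widely in value between the lists of endogenous Sp1. FAM86C2P had −log10 p-values of 120 and 148 in the Sp1 IDR-LacI rV5 and mV5 lists and 116 and 130 in the Sp1 IDR-CTCF DBD lists. It had 9.82 in the Sp1 WT rV5 list and no peak in the Sp1 WT mV5 list or either CTRL list. FAM86EP was in 7 of the 8 V5 lists, from 79.4 in the Sp1 WT rV5 list to 148 in the CTRL mV5 list, with no peak in the CTRL rV5 list. LINC02021 had 138 in the CTRL rV5 list, 114 in the Sp1 WT rV5 list and 128 in the Sp1 IDR-CTCF DBD mV5 list, and none in the other 5 V5 lists. ENSG00000248787 had 135 in the Sp1 WT mV5 list and no peak in the other 17. The last group member, ENSG00000287117, was in all 8 V5 lists, between 35.8 and 65. Of the 8 members with a value over 100 in some V5 list, 2 (ENSG00000248103 and LINC01115) were in all 8 V5 lists. Of the other 6, ENSG00000244459 and ENSG00000268120 lie outside the group, the former with 75.4 to 113 in 6 V5 lists and no peak in the other two, so the pattern was not particular to the group. A peak missing from a list had no reproducible call there, and whether its signal was absent, or was assigned to another copy, was not tested.

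Recovery in another list meant at least 1 bp in common with a peak of that list. Of the 285 peaks, 129 (45.3%, 39.6 to 51.1) were found in the Sp1 DBD list, which recovered 48.7% of all Sp1 WT peaks and 53.2% of those at coding starts. The difference from coding starts was −7.97 points (Fisher's exact test, Benjamini-Hochberg over 18 lists, adjusted exact p = 0.025), and the share was higher than the 28.4% at neither start (adjusted exact p = 5e-06). In the EWS IDR-Sp1 DBD list 108 were found (37.9%, 32.5 to 43.7), against 35.1% of all peaks and 36.6% at coding starts (adjusted exact p = 0.98). Within quartiles of rank the odds ratio against coding starts was 0.692 (0.528 to 0.905) for the Sp1 DBD list and 1.11 (0.842 to 1.46) for the EWS IDR-Sp1 DBD list, so the second interval holds both lower and higher recovery. Among the 135 members with an IDR of at most 0.01, the Sp1 DBD difference was −2.37 points and missed the threshold (unadjusted exact p = 0.55).

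Set side by side, both lists held 85 of the members, the Sp1 DBD list alone 44, the EWS IDR-Sp1 DBD list alone 23 and neither 133. At coding starts the numbers were 1239, 884, 220 and 1645. The Sp1 DBD list is the longer, with 3277 peaks against 2535, and recovered more of the whole Sp1 WT list, so these numbers are given as a description with no test. The members found in the Sp1 DBD list were stronger in the Sp1 WT list (median 25.9) than those not found (15.3), and also wider (median 1069 against 858 bp).

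Lists of endogenous Sp1 held fewer of these peaks, and they were also shorter, with 1332 to 2172 peaks. A shorter list can hold fewer peaks of every class, so the comparisons below are between classes in the same list. The CTRL rV5 list, from cells with no transgene, held 69 (24.2%, 19.6 to 29.5), against 30.6% of all peaks and 33.9% at coding starts (adjusted exact p = 0.0042). The CTRL mV5 list held 68 (23.9%), against 29.6% of all and 32.6% at coding starts (adjusted exact p = 0.0071). These 2 antibodies found 54 members in common, 15 with rV5 alone and 14 with mV5 alone. For coding-start peaks the same numbers were 1076, 276 and 225, and the 2 splits were not tested against each other. Within quartiles the odds ratio against coding starts was 0.548 (0.394 to 0.762) with rV5 and 0.578 (0.415 to 0.805) with mV5. At an IDR of at most 0.01 the differences were −6.65 and −6.75 points and both missed the threshold (unadjusted exact p = 0.15 and 0.13).

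By quartile, V5 recovery was lower at lncRNA starts than at coding starts in all 4, by different amounts. In the strongest quartile the CTRL rV5 list held 46 of 69 members (66.7%) and 69.1% of coding-start peaks (exact p = 0.69, unadjusted). In the second quartile it held 24% against 34.5%, in the third 2 of 77 (2.6%) against 18.4% (exact p = 6.5e-05), and in the weakest 3 of 64 (4.69%) against 10%. With mV5 the shares were 65.2, 21.3, 5.19 and 4.69% at lncRNA starts and 69.6, 33.2, 16.4 and 7.58% at coding starts. In the Sp1 DBD list they were 76.8, 52, 37.7 and 12.5% against 82.5, 60.7, 40.8 and 25.5%. Whether the odds ratios differ between quartiles was not tested.

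**Figure D3:**
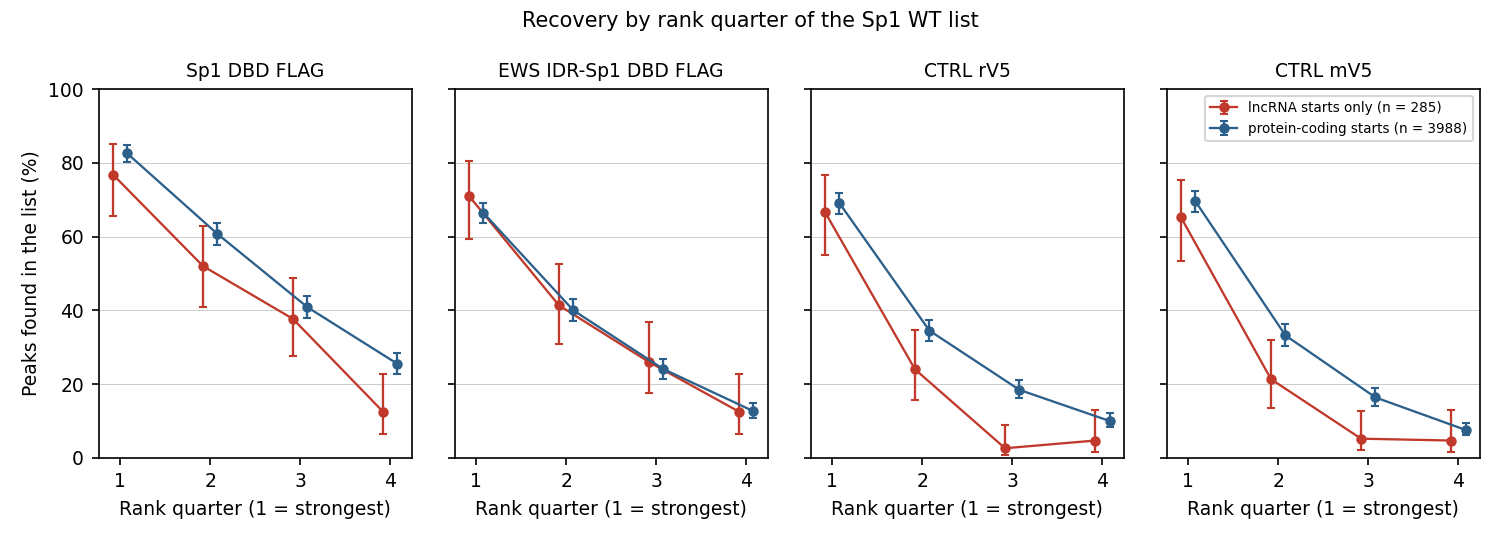
Share of Sp1 WT peaks found in 4 other lists (percent, with 95% Wilson intervals) by rank quartile of the Sp1 WT list, for peaks at lncRNA starts only and at protein-coding starts. In the CTRL rV5 and mV5 panels the lncRNA-start peaks drop to 2.6 and 5.19% in the third quartile.

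In the lines with a transgene the V5 lists gave shares in the same range. The Sp1 WT rV5 list held 61 members (21.4%, against 26.4% of all peaks and 28.1% at coding starts, adjusted exact p = 0.031) and the Sp1 WT mV5 list 50 (17.5%, against 21.1% and 22.3%, adjusted exact p = 0.13). The Sp1 IDR-LacI rV5 list held 74 (26%, against 32.8% and 36.3%, adjusted exact p = 0.0037) and its mV5 list 59 (20.7%, against 27.3% and 29.2%, adjusted exact p = 0.0071). The Sp1 IDR-CTCF DBD rV5 list held 74 (26%, against 33.4% and 36.5%, adjusted exact p = 0.0037) and its mV5 list 47 (16.5%, against 22.2% and 24%, adjusted exact p = 0.011). Recovery at lncRNA starts was thus below that at coding starts in all 8 V5 lists, and 7 of the 8 differences passed the test. The lists share the same 285 peaks and are not independent. All 8 V5 lists held 29 of the members (10.2%) and none of the 8 held 180 (63.2%). The shares were 12.5% and 54% of all Sp1 WT peaks, and 13.6% and 51% at coding starts.

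The CTCF DBD list held 13 members (4.56%, 2.68 to 7.65), against 3.88% of all peaks and 3.61% at coding starts (adjusted exact p = 0.68). Their values in that list had a median of 12 and a highest of 14.1, at LINC00662. These values were not scaled to those of other lists. The Sp1 IDR-CTCF DBD FLAG list held 6 (2.11%), against 1.42% of all and 1.25% at coding starts (adjusted exact p = 0.49). MIRLET7A1HG (9.45) and ENSG00000260857 (11.3) were among them, the latter present in 11 other lists.

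None of the 285 members was found in any of the 6 control-type lists, Sp1 IDR-LacI FLAG, LacI FLAG, Sp1 DBD Mutant FLAG, SNAPf-NLS FLAG, CTRL mFLAG and CTRL rFLAG (0 of 285, which allows a share of up to 1.05% as 3 counts of the total, or 1.33% as the Wilson upper limit). Among all Sp1 WT peaks 0.971% were, among those at neither start 4.26% (Fisher's exact test, unadjusted exact p = 4.2e-05), and at coding starts 0%. The control-type lists were short, from 22 to 295 peaks, so a low share was possible from their size alone. Peaks were called against merged control libraries. Which libraries these were is not stated, and whether CTRL FLAG libraries among them bear on this 0 was not tested.

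**Figure D4:**
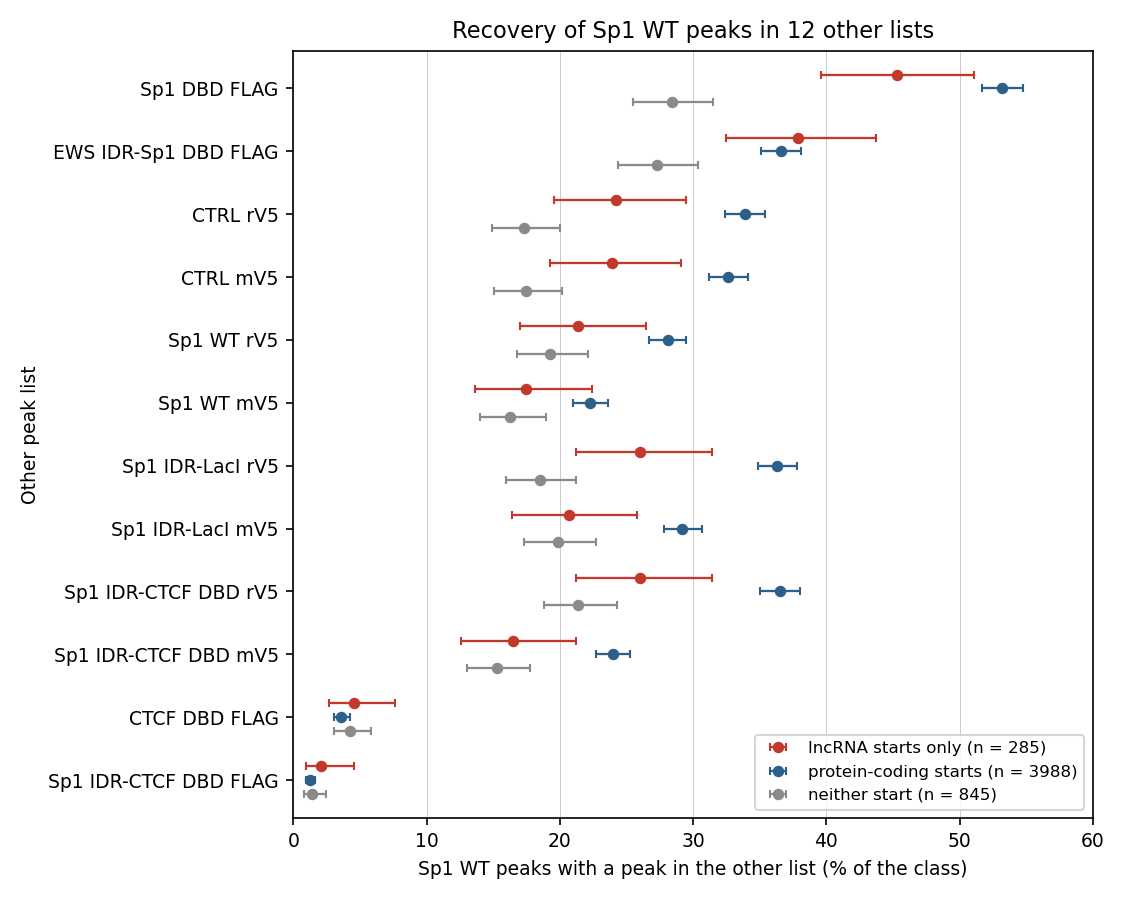
Share of Sp1 WT peaks (percent, with 95% Wilson intervals) that have a peak in each of 12 other lists, for 285 peaks at lncRNA starts only, 3988 at protein-coding starts and 845 at neither. The lncRNA-start peaks sit below the coding-start peaks in the Sp1 DBD list and the 8 V5 lists, and at 37.9% against 36.6% in the EWS IDR-Sp1 DBD list.

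Over all 18 other lists, 100 members (35.1%, 29.8 to 40.8) were found in none, against 29.1% of all Sp1 WT peaks. The share was 25.9% at coding starts and 43.4% at neither start (Fisher's exact test, unadjusted exact p = 0.00084 and 0.015). Another 49 were in 1 list, 47 in 2, and 17 in 10, which is the number of Sp1 DBD, EWS IDR-Sp1 DBD and V5 lists together. The Sp1 DBD, EWS IDR-Sp1 DBD and both CTRL V5 lists all held 27 members (9.47%) and none of the 4 held 115 (40.4%). The shares were 11.2% and 34.4% of all Sp1 WT peaks, and 12.5% and 29.7% at coding starts. Peaks in an intron of a coding gene were found in the Sp1 DBD list at 7 of 31 (22.6%), which is given as a description. Those in an exon were found at 3 of 6 (50%) and peaks outside coding genes at 119 of 248 (48%). The intron peaks were also weaker in the Sp1 WT list than those outside coding genes (median 16.2 against 19.7). Whether this bears on their recovery was not tested.

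When the same position rule was applied to each list, peaks at lncRNA starts only were a like share of most. They were 161 of 3277 in the Sp1 DBD list (4.91%), 154 of 2535 in the EWS IDR-Sp1 DBD list (6.07%) and between 4.1 and 4.66% in the 8 V5 lists. The CTCF DBD list had 40 of 649 (6.16%) and the Sp1 IDR-CTCF DBD FLAG list 12 of 166 (7.23%). The Sp1 IDR-LacI, LacI, Sp1 DBD Mutant and SNAPf-NLS FLAG lists had 0 of 228, 225, 94 and 295. The CTRL mFLAG list had 1 of 22 (4.55%) and the CTRL rFLAG list 1 of 54 (1.85%), and neither of these peaks overlaps a member.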

How the data were processed

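The authors' processing notes and methods name cutadapt 2.6 for trimming, Bowtie2 2.3.5.1 for alignment to the hg38 genome and SAMtools 1.9 for the removal of duplicate reads. MACS3, whose version is stated to be 2.2.7.1, was run with a p-value limit of 1e-3 and merged controls. Which libraries formed the merged control of each antibody, and whether a blacklist was applied to the peaks, is not stated in the sources used here. Peaks of the 2 replicates, sorted by p-value, then went into an irreproducible discovery rate (IDR) analysis. They deposited 19 lists of peaks with IDR of at most 0.1. The −log10 p-values of the merged peak and of each replicate are the authors', as deposited, and so is the −log10 of the global IDR. The order in which the labelled replicates entered IDR is not stated. Read numbers were not analysed here, so depth is unknown. Their 6 tables of differential regions hold log10 likelihood ratios of the authors' own comparisons and were not used.

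Samples were grouped by their labels. The position of a peak is its merged summit, set against all transcript starts of GENCODE 44. Overlap meant 1 bp, checked with bedtools 2.31.1. Shares have 95% Wilson intervals for counting error alone, and were tested against each other with the two-sided Fisher's exact test at a threshold of 0.05, adjusted by Benjamini-Hochberg over 18 lists, 9 motifs or 5 window measures (SciPy 1.17.1). Tests within quartiles used the Mantel-Haenszel odds ratio (statsmodels 0.14.6). The code was tested on simulated data. Named lncRNAs are the 15 strongest with a symbol and a window that is not repeated, the 3 strongest of all, those of 7 lists of well-known lncRNAs, the 3 in the most lists and the peaks at the limits of the rule. PBX3-DT, RASSF3-DT, ENSG00000244459, ENSG00000268120, SDHAP1, STAG3L4, STAG3L5P and the other members of the shared-sequence groups were named after their values were seen. Members, lists and tests were chosen with earlier results of these data known, and the 5% limit for shared sequence after the sequences were seen. The alternatives were other IDR thresholds, distances, annotations, overlaps, classes of comparison, motifs and ranks, and leaving out repeated sequence.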

Additional observations from a re-analysis of the deposited data

How the results depend on the processing

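Of 116 recomputed comparisons, 96 kept their direction and their side of the threshold, and 9 of 10 recomputed numbers of members lay within 1.5 times of 285. The p-values in this section were not adjusted, unlike those of the main comparisons. At an IDR of at most 0.01 the members numbered 135, and every comparison with coding-start peaks missed the threshold. The differences were then −3.86 points for the GC box, −2.37 for the Sp1 DBD list, −6.65 for the CTRL rV5 list and −6.75 for the CTRL mV5 list, and the strongest quartile (4.09), the wider peaks (0.472) and the CTCF DBD list (−0.887) turned sign without passing the test. Fewer peaks enter that comparison. The GC box difference also missed the threshold with 500 bp to the lncRNA start (−4.62) and without repeated sequence (−4.87). Removal of the peaks of control-type lists as well could change nothing, since 0 of 285 members and 0 of 3988 coding-start peaks were in those lists. Results of that alternative repeat those without repeated sequence, and both are counted in the numbers above. Leaving out repeated sequence still kept the FAM86C2P, FAM86EP and LINC02021 peaks. Width passed the unadjusted threshold with position measured from the nearest edge (−6.38) or over 5000 bp from coding starts (−6.92), with Fisher's exact p = 0.038 in both. The EWS IDR-Sp1 DBD difference was −0.166 with the nearest edge. The cause was not tested.

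Against peaks at neither start, all differences were positive, with 21.2 points for the GC box, 5.99 for the strongest quartile, 13.9 for width, 16.9 for the Sp1 DBD list, 10.6 for the EWS IDR-Sp1 DBD list, 6.93 for the CTRL rV5 list and 6.34 for the CTRL mV5 list. Leaving out a replicate was not possible, since each list is made from both, and ranking by either replicate kept the result for the strongest quartile. No paired analysis was possible because each list merges both replicates into 1 set of peaks. Depth limits every absence from a list by an unknown amount. The alternatives without repeated sequence and control-type peaks, with replicate summits within 200 bp of each other, and the GC box within quartiles were chosen after seeing the data.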

Other observations

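Other members near lncRNAs with known names, chosen after their values were seen, were of middle or low rank. CHASERR, which lies beside CHD2, had −log10 p-values of 26.9 and 46.9, LUNAR1 27 and 35.5, MIAT 19.7 and 22, SAMMSON 18.1 and 27.1 and DRAIC 12.1 and 18. LUNAR1 was in the Sp1 DBD and EWS IDR-Sp1 DBD lists, CHASERR and MIAT in the Sp1 DBD list alone, and SAMMSON and DRAIC in no other list. MIAT and MIATNB are neighbours on chromosome 22, and the MIATNB peak was in 10 other lists. The DDX11L16 peak lay 792 bp from the lncRNA start, in a window with 53.8% repeated words. It had 16.7 (rank 13) in the Sp1 IDR-CTCF DBD FLAG list, 14.9 in the Sp1 WT list, 12.3 in the CTCF DBD list and 9.8 in the Sp1 DBD list. PCAT7 had 14.4 in the Sp1 IDR-CTCF DBD FLAG list, 13.8 in the Sp1 WT list and 10.1 in the CTCF DBD list. Values of different lists were not scaled to one another.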
